A study of Arabidopsis thaliana with 6 samples.

Results

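AUR1, AUR2, 3xHMG-box1 and 3xHMG-box2 are 4 Arabidopsis thaliana genes of mitosis, chosen by name and each measured by a probe set assigned to that gene alone. They are 4 of the 13513 probe sets with 1 named gene, among 22746 on each array. Whole 15-day-old seedlings of the Col-0 ecotype, wild type or the gapcp1gapcp2 double mutant, were compared, with 3 arrays of each genotype titled as biological replicates. The double mutant is mutated in GAPCP1 and GAPCP2, genes for the plastid forms of glyceraldehyde-3-phosphate dehydrogenase, an enzyme of glycolysis, and the labels name no alleles. Seedlings of both genotypes had been kept on 0.75 µM abscisic acid (ABA), a hormone that slows growth and germination, for 8 days, so the arrays give the levels of these genes under ABA and not their response to it. With 3 arrays a genotype, precision is limited by their number.

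Aurora kinases are serine/threonine kinases that act on the mitotic spindle and on chromosomes. In Arabidopsis AUR1 and AUR2 are closely related, locate to spindle microtubules and the forming cell plate, and set the orientation of formative divisions, while the third member, AUR3, locates to centromeres. The 3xHMG-box proteins carry 3 DNA-binding HMG boxes, are made mainly in dividing cells and bind condensed chromosomes during mitosis. Transcripts of both families peak around mitosis, so in a whole seedling they come mostly from meristems and young organs, which are a small part of the RNA. In such bulk samples, fewer dividing cells and less RNA per dividing cell cannot be told apart.

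The arrays carried signal from green tissue and root. The antenna gene LHCB4.1 had intensities between 8469 and 9736 and the root gene PYK10 between 4073 and 6109, on the linear scale of the deposited values. CLV3, for a signalling peptide of the shoot stem cells, had only 0.830 to 18.5. It was the 1 meristem regulator of 10 listed with a probe set of its own. Array medians ran from 105.8 to 113.0. GAPCP1 and GAPCP2 have no named probe set in the table used here, so the targeted genes did not check the genotype labels. All 4 mitosis genes passed the filter on dim probe sets, which left out the lowest 30% by mean. The call of each rests on limma's moderated test of log2(intensity + 16) across all 15922 probe sets tested, with Benjamini-Hochberg adjustment at 0.05. At that threshold 0 probe sets (0%) were called, at an unadjusted p under 0.05 there were 271 (1.70%), and on 1001 (6.29%) the 3 mutant arrays did not overlap the 3 wild type arrays.

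No difference between the genotypes was established for any of the 4 mitosis genes. All 4 were fitted slightly higher in the mutant, by 0.061 to 0.22 on the log2 scale, where 48.7% of all tested probe sets were fitted above 0. Of the 4, 0 passed the adjusted or the unadjusted threshold, and 0 had genotypes that did not overlap. The mean of the 4 differences was 0.12 and their median 0.092, beside a median of -0.0032 over all probe sets tested. The 4 genes are not replicates of each other, so no test was made of that mean.

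AUR1 (locus AT4G32830) gave 208, 169 and 175 on wild type arrays 1, 2 and 3, as linear intensity, and 193, 217 and 169 on mutant arrays 1, 2 and 3. Wild type 1 and mutant 2 were the highest arrays, one of each genotype, and the groups overlapped over most of their range. The wild type mean was 184 ± 21.0 and the mutant mean 193 ± 24.3 (SD, n = 3). The fitted log2 difference was 0.061 ± 0.13 (SE), with a 95% interval of -0.23 to 0.36 (limma adjusted p = 1.00). On this scale the interval allows a mutant level between 0.851 and 1.28 times that of wild type. Mutant 2 decides the direction, since without it the log2 difference was -0.021.

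AUR2 (AT2G25880) had the largest fitted difference of the 4. Wild type arrays 1, 2 and 3 gave intensities of 123, 87.1 and 84.2, and mutant arrays 1, 2 and 3 gave 110, 107 and 131. All 3 mutant arrays lay above the wild type median, and 1 of them above wild type 1, which kept the groups overlapping. The means were 98.2 ± 21.8 and 116 ± 13.2 (SD, n = 3), a log2 difference of 0.22 ± 0.16 (SE) with a 95% interval of -0.15 to 0.59 (limma adjusted p = 1.00). Its interval reached from 0.903 to 1.502 times the wild type level, the widest of the 4. Of all tested probe sets, 11.2% had a larger absolute difference than AUR2. The same share was 59.0% for AUR1, 50.6% for 3xHMG-box1 and 36.8% for 3xHMG-box2. The size moved with single arrays. Without wild type 1 the log2 difference was 0.37 and the unadjusted limma p fell below 0.05, with the adjusted p at 0.999. Without wild type 2 or wild type 3 the difference was 0.15 or 0.13. Without mutant 1, 2 or 3 it was 0.25, 0.27 or 0.14. The unadjusted limma p stayed above 0.05 in each of these other omissions.

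3xHMG-box1 (AT4G11080) ran differently among the arrays. Its intensity was 74.5, 82.1 and 71.6 on wild type arrays 1, 2 and 3, and 97.7, 67.1 and 80.4 on mutant arrays 1, 2 and 3. The mutant arrays held both the highest and the lowest value, with the wild type arrays between them. The means were 76.1 ± 5.38 and 81.7 ± 15.3 (SD, n = 3), and the log2 difference was 0.076 ± 0.16 (SE), with a 95% interval of -0.28 to 0.44 (limma adjusted p = 1.00). Without mutant 1 the difference turned to -0.039.

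3xHMG-box2 (AT4G23800) had the narrowest interval of the 4. Intensities were 373, 397 and 385 on wild type arrays 1, 2 and 3, and 432, 370 and 451 on mutant arrays 1, 2 and 3. Mutant 1 and mutant 3 lay above all wild type arrays and mutant 2 below them. The means were 385 ± 12.1 and 417 ± 42.5 (SD, n = 3), a log2 difference of 0.11 ± 0.11 (SE) with a 95% interval of -0.13 to 0.35 (limma adjusted p = 1.00). For AUR1, 3xHMG-box1 and 3xHMG-box2 the whole interval lay within a 1.5-fold change in either direction, and for all 4 within a 2-fold change. These folds are of intensity + 16, which understates the changes of dim genes. Such intervals were not particular to the 4. Of 16 other listed division genes, 10 lay within 1.5-fold and 14 within 2-fold. Interval widths were 0.48 to 0.73 on the log2 scale for the 4, beside a median of 0.62 over all probe sets tested.

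**Figure D1:**
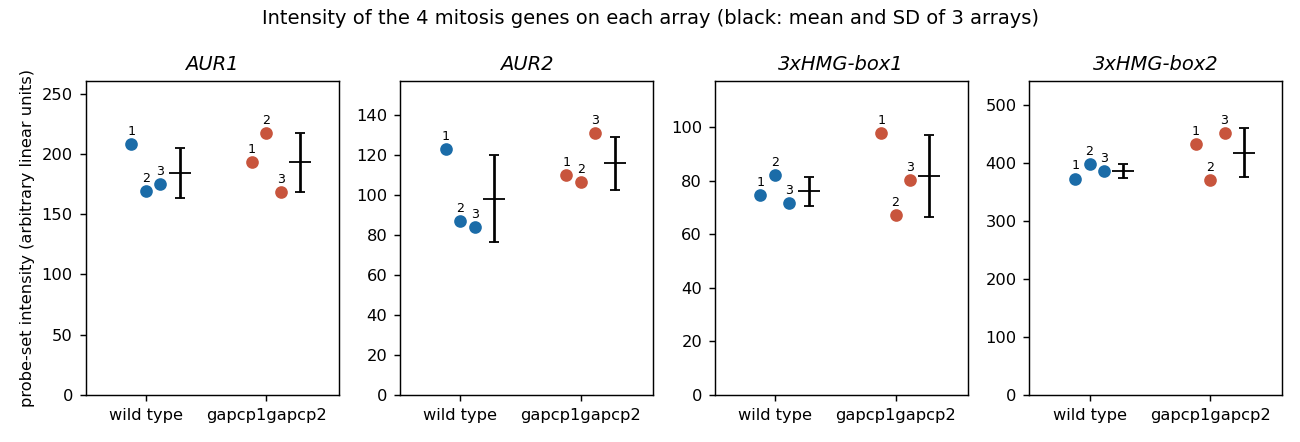
Probe-set intensity (linear, arbitrary units) of each mitosis gene on the 3 wild type (blue) and 3 gapcp1gapcp2 (red) arrays, numbered by replicate, with the mean and SD of 3 arrays in black. The genotypes overlap for all 4 genes, and in the mutant 3xHMG-box1 runs from 67.1 to 97.7 around the wild type values.

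The spread between the 6 arrays differed among the genes. The SD of log2(intensity + 16) over all arrays was 0.15 for AUR1, 0.22 for AUR2, 0.16 for 3xHMG-box1 and 0.11 for 3xHMG-box2, and the median over all tested probe sets was 0.16. The highest array exceeded the lowest 1.29-fold for AUR1, 1.56-fold for AUR2, 1.46-fold for 3xHMG-box1 and 1.22-fold for 3xHMG-box2. Of all tested probe sets, 72.7% had a lower SD than AUR2, and 25.1% to 48.4% a lower SD than the other three.

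Over the 6 arrays, too few to exclude shared movement, no correlation was established among the 4 genes. Of their 6 pairs, 4 had a Pearson correlation above 0 and 2 below, from -0.59 to 0.73, and none passed the exact two-sided permutation test after adjustment over the 6 pairs (smallest adjusted p = 0.550). The 2 genes for 3xHMG-box proteins gave the highest value, r = 0.73 (exact permutation p = 0.0917) and Spearman's rho = 0.77 (exact p = 0.103). Both were lowest in mutant 2 and had mutant 1 and mutant 3 among their 3 highest arrays. Without the 2 arrays farthest from the median of 3xHMG-box1 r was 0.61, and over deviations from the genotype means it was 0.72. Of 6697 named probe sets that varied at least as much as the least variable member, 12.4% followed 3xHMG-box1 more closely than 3xHMG-box2 did, and 6.61% followed 3xHMG-box2 more closely than 3xHMG-box1 did.

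The Aurora pair gave r = 0.32 (exact permutation p = 0.485) and rho = -0.086 (exact p = 0.919), and 0.086 for r without the 2 arrays farthest from the median of AUR1. Wild type 1 was high and wild type 2 and 3 were low for both, but mutant 3 was the lowest array for AUR1 and the highest for AUR2. Of the 6697 probe sets, 27.6% followed AUR1 more closely than AUR2 did, and 37.2% followed AUR2 more closely than AUR1 did.

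Across the families the values lay on both sides of 0. AUR1 and 3xHMG-box2 gave r = -0.59 (exact permutation p = 0.219) and rho = -0.83 (exact p = 0.0583, adjusted p = 0.308). That r was 0.16 without the 2 arrays farthest from the median of AUR1. With any 1 array left out it stayed between -0.74 and -0.40. Over deviations from the genotype means it was -0.85 (permutation p = 0.0222, adjusted over the 6 pairs 0.133). That p is not exact, since the deviations sum to 0 within each genotype. AUR1 with 3xHMG-box1 had r = -0.31 (exact permutation p = 0.586) and rho = -0.49 (exact p = 0.356), with 0.74 for r without the 2 farthest arrays. AUR2 gave r = 0.14 with 3xHMG-box1 (exact permutation p = 0.800) and rho = 0.26 (exact p = 0.658), and r = 0.38 with 3xHMG-box2 (exact permutation p = 0.439) and rho = 0.37 (exact p = 0.497). Without the 2 arrays farthest from the median of AUR2 these r were 0.0092 and 0.42. With arrays centred on the array median they were 0.026 and 0.22. AUR2 had r = 0.67 with the array median itself (exact permutation p = 0.174, adjusted over 4 genes 0.694). AUR1, 3xHMG-box1 and 3xHMG-box2 had -0.036, 0.059 and 0.18 with it. The relations to the array median were added after their values were seen, so their p-values are descriptive only. The part of array brightness in these correlations was not tested.

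**Figure D2:**
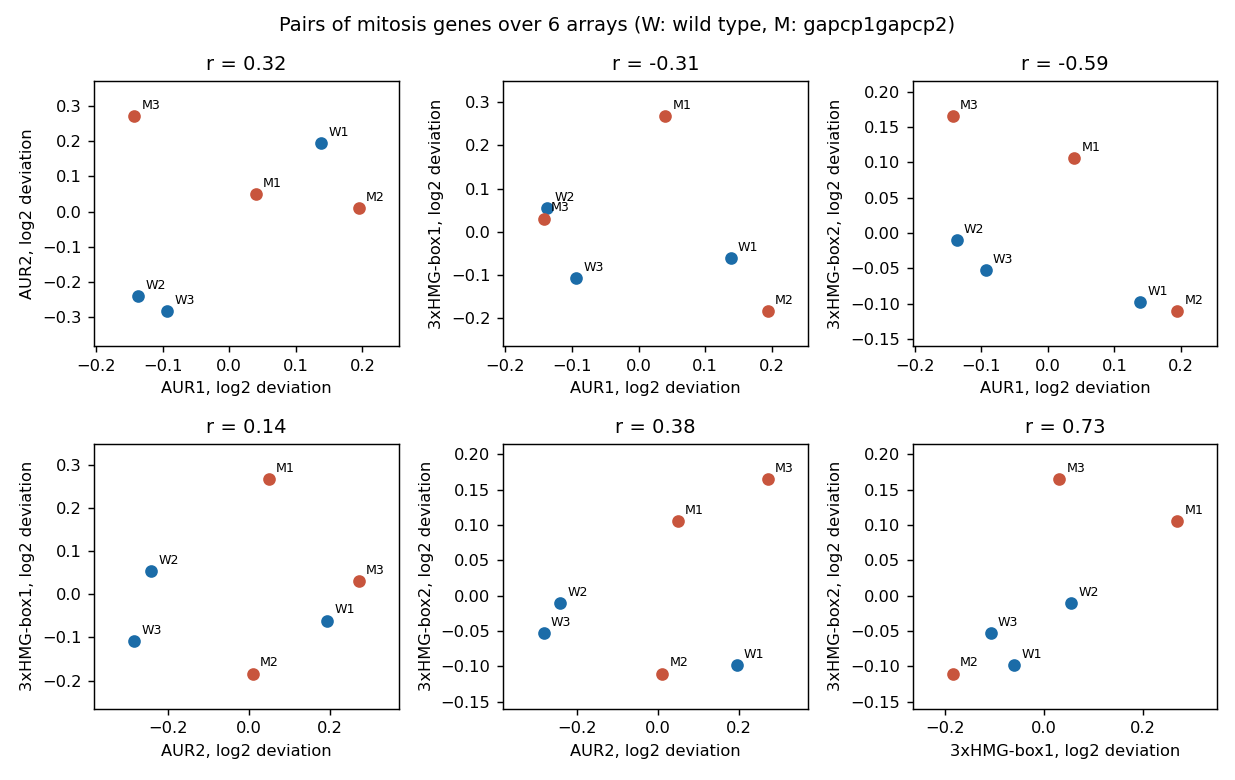
Each panel plots the log2 deviation of a mitosis gene from its own mean against that of another, for 3 wild type (W, blue) and 3 gapcp1gapcp2 (M, red) arrays, with Pearson's r above. The 3xHMG-box pair has the highest r (0.73) and AUR1 with 3xHMG-box2 the lowest (-0.59), and none of the 6 passed the adjusted permutation test.

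Root markers differed between arrays of one genotype, and the mitosis genes stood in different relations to them. The summed intensity of the 4 measured root markers of 5 listed (PYK10, NAI2, EXPA7 and EXPA18) was 5440 to 7548 in wild type and 5004 to 7123 in the mutant, highest in wild type 1 and mutant 2. 3xHMG-box1 was lowest in mutant 2 and highest in mutant 1, where the root markers were lowest, with r = -0.85 against their mean profile (exact permutation p = 0.0250, adjusted over 4 genes 0.100) and rho = -0.83 (exact p = 0.0583). Without the 2 arrays farthest from the median of the root profile it was -0.52. The values for 3xHMG-box2, AUR1 and AUR2 were r = -0.66, 0.61 and 0.32 (exact permutation p = 0.158, 0.221 and 0.515) and rho = -0.66, 0.49 and 0.26 (exact p = 0.175, 0.356 and 0.658). Without the 2 farthest arrays, mutant 1 and mutant 2, these r were -0.37, 0.92 and 0.63. These r rest on few arrays and were not tested. The part of the root markers in the pattern of any mitosis gene was not tested. These relations were added after their values were seen, so their p-values are descriptive only.

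The same arrays lay at the ends of the first principal component of all tested probe sets, which held 43.4% of the variance. Its scores were 20.3 in wild type 2 and 23.2 in mutant 1 and -17.2 in wild type 1 and -22.0 in mutant 2, with the other two arrays near 0. 3xHMG-box1 had r = 0.85 with it (exact permutation p = 0.0250, adjusted over 4 genes 0.100) and rho = 0.83 (exact p = 0.0583), and 0.63 without the 2 arrays farthest from the median score. AUR1 had r = -0.59 (exact permutation p = 0.257) and rho = -0.49 (exact p = 0.356), and r = -0.99 without the 2 farthest arrays. Those 2 arrays were wild type 2 and mutant 1, so the positive end of the component was gone. The r values without them rest on few arrays and were not tested. For 3xHMG-box2 and AUR2 the values were r = 0.58 and -0.35 (exact permutation p = 0.226 and 0.465) and rho = 0.66 and -0.26 (exact p = 0.175 and 0.658), and r = 0.71 and -0.20 without the 2 farthest arrays. The relations to the component were also added after their values were seen, so their p-values are descriptive only. The root profile had the same arrays at its ends, in reverse, so the relations to root markers and component are not separate findings.

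**Figure D3:**
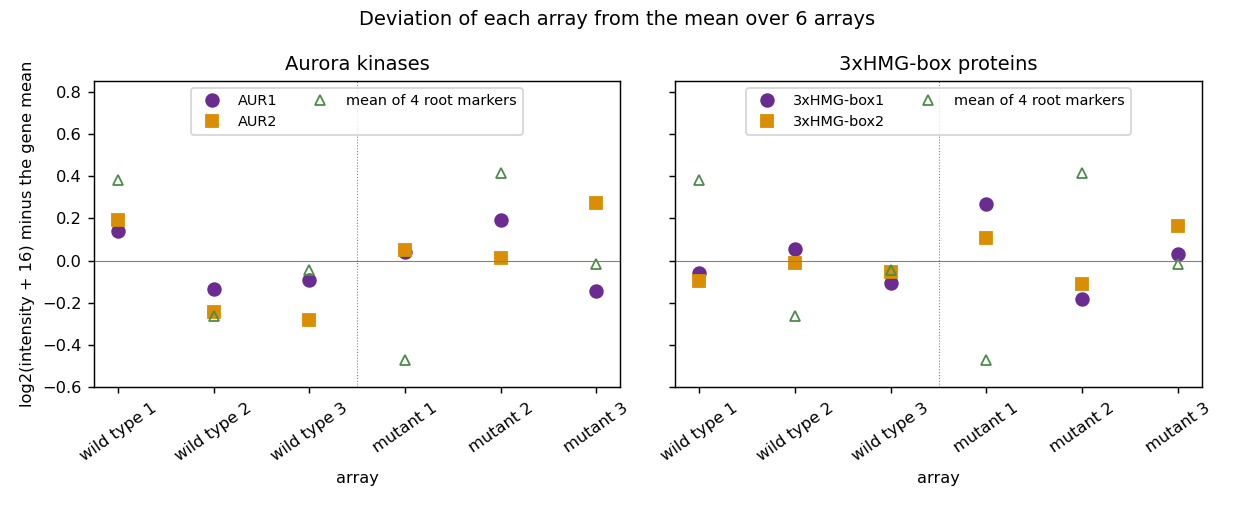
Deviation of log2(intensity + 16) from the gene's mean over 6 arrays, by array, for the Aurora kinase genes (left) and the 3xHMG-box genes (right), with the mean of 4 root markers as open triangles. In mutant 1, where the root markers are lowest, 3xHMG-box1 is at its highest, 0.27 above its mean, and in mutant 2 at its lowest, -0.18.

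Other division genes gave no call either. Of 137 genes listed for cell division, 20 had a named probe set of their own and 16 passed the filter, and 0 of these 16 passed the adjusted or the unadjusted test. They were fitted above 0 in 8 cases and below in 8, with a median log2 difference of 0.011. None of the 21 listed mitotic cyclins, cyclin-dependent kinases and their binding partners, and none of the 17 listed regulators of entry into S phase, had a named probe set here. AUR3, the third Aurora gene, was below the filter, with intensities of 43.2, 45.4 and 48.3 on wild type arrays 1, 2 and 3, and 26.9, 37.4 and 39.7 on mutant arrays 1, 2 and 3. Its 3 mutant arrays lay below its 3 wild type arrays, and in the fit without the filter its log2 difference was -0.29 ± 0.20 (SE), with a 95% interval of -0.73 to 0.15 (limma adjusted p = 1.00). Haspin, for a kinase of histone H3 and also below the filter, did not overlap in the other direction, with 25.9 to 35.4 in wild type and 35.6 to 39.0 in the mutant (log2 difference 0.18 ± 0.20, SE, in that fit). Without the filter the genotypes did not overlap on 1679 of 22746 probe sets (7.38%). Below the filter was also WYR, for an inner centromere protein (-0.29 ± 0.27, SE, in that fit).

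The genes of the spindle checkpoint and of cytokinesis lay on both sides of 0. BUBR1 and BUB3.1, for checkpoint proteins, had log2 differences of 0.061 ± 0.17 and 0.12 ± 0.16 (SE). KINESIN-12B, for a motor of the phragmoplast, the structure that builds the new cell wall, had -0.24 ± 0.18 (SE). Chromosome genes had no common direction. ATSMC2, for a condensin subunit, had 0.11 ± 0.20 (SE), and HTR12, the centromeric histone H3, had -0.46 ± 0.46 (SE). The latter rests on mutant 2, whose HTR12 intensity was 8.07, while the other 5 arrays lay between 51.4 and 84.6.

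Replication genes were no clearer. PRL, the MCM7 subunit of the replicative helicase, had 0.034 ± 0.10 (SE) and ICU2, the catalytic subunit of DNA polymerase alpha, -0.31 ± 0.20 (SE). SIM, an inhibitor of cyclin-dependent kinases in cells that replicate DNA without dividing, had 0.055 ± 0.29 (SE). Of the 5 measured core histone genes, all for histone H2B, HTB4 had a log2 difference of 0.084 ± 0.084 (SE). HTB11 had -0.097 ± 0.13, HTB1 -0.024 ± 0.091, HTB2 0.024 ± 0.18 and AT2G28720 -0.022 ± 0.11 (SE). The remaining listed genes were AT1G63100 at 0.47 ± 0.33, AT4G39630 at -0.15 ± 0.23 and AT1G76110 at -0.0019 ± 0.14 (SE). The intensity of AT1G63100 was 32.1 in wild type 3 and 102 to 116 on the other 5 arrays.

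**Figure D4:**
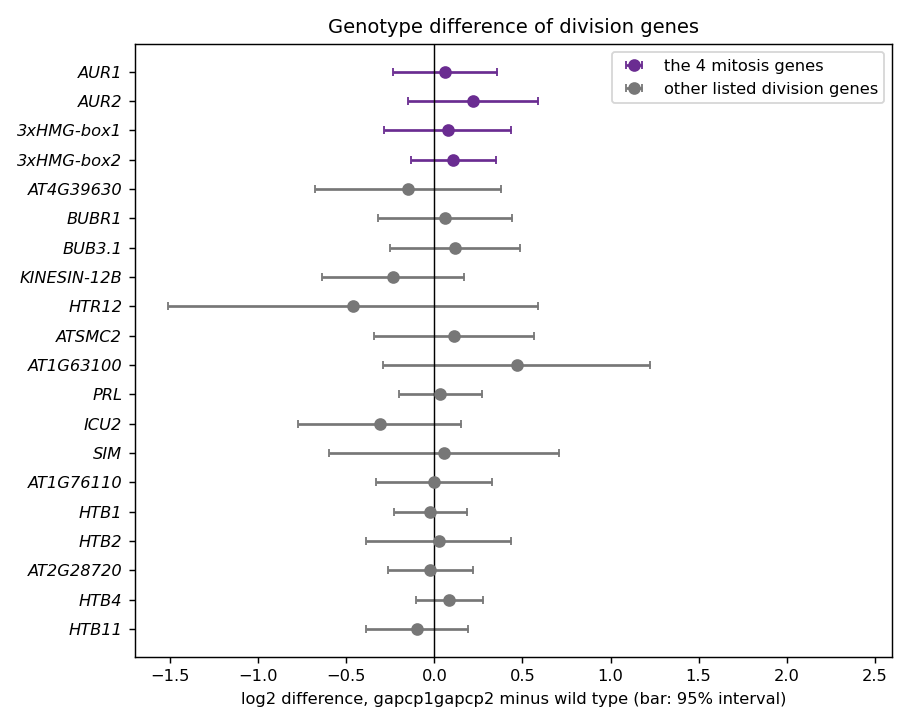
Log2 difference between gapcp1gapcp2 and wild type with its 95% interval, for the 4 mitosis genes (purple) and 16 other listed division genes (grey). All 20 intervals include 0, and the widest is that of HTR12.

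The mean profile of the 4 mitosis genes was 0.12 in mutant 1, 0.081 in mutant 3 and 0.043 in wild type 1, and -0.13 in wild type 3, -0.083 in wild type 2 and -0.022 in mutant 2 (log2 deviation from the mean). The 16 other division genes had correlations with it from -0.40 (KINESIN-12B) to 0.65 (AT1G63100), 9 above 0 and 7 below (smallest exact permutation p = 0.131, smallest adjusted p = 0.873). The value for AT1G63100 turned to -0.37 without wild type 3. The genes most like the mean profile by Pearson's r over the 6 arrays, among the 6697 candidates, were SDRB (0.97), AT1G18180 (0.97), AT1G61670 (0.96), AT5G42960 (0.96), LPA66 (0.96) and AT3G14160 (0.96). They were picked as the highest of many, and 43 candidates reached at least 0.9. None is among the listed division genes. The closest to single members were AT3G18170 and AT1G13990 for AUR1 (0.99 and 0.98), AT5G27280 and AT1G20580 for AUR2 (0.99 and 0.99), AT1G74300 and AT3G01160 for 3xHMG-box1 (0.99 and 0.98) and AT2G29210 and AT1G23590 for 3xHMG-box2 (0.98 and 0.98). No gene appears for more than 1 of the 4, but only 2 were kept for each. Between 30 and 101 candidates per gene reached at least 0.9, so this does not show separate neighbours.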

How the data were processed

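Each array has 1 column of deposited linear probe-set intensities, and per the submitters' processing notes the authors used GCOS, the Affymetrix software. Its version, summarisation, scaling and any background step are not stated there. On each array 1.74% to 3.45% of values were negative. One free-text label speaks of embryos, against the source, tissue and protocol labels, and was not used.

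Genes were named through the platform's probe table, updated by gene ID to RefSeq symbols (TAIR10.1), with 13436 of 13513 single-gene probe sets matched. Another 503 had several genes and 8730 were unnamed here. The build behind the deposited values is not given in the sources used here, so no coordinates are printed.

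Intensities below 0 were raised to 0 (a step added once negative values were seen), log2(value + 16) was taken without further normalization, and the lowest 30% by mean were left out. This understates the changes of dim genes. Limma 3.58.1 in R 4.3.3 (lmFit, eBayes with trend, two-sided) was run on the whole table and tested on simulated data. Correlations were tested by permutation over the 6 arrays, exact except for deviations from the genotype means. Values of r without the 2 farthest arrays rest on the few arrays left and have no p. The members and lists were chosen with earlier results of these data known. The rule for names was the 4 members, the listed division genes above the filter, and the 6 probe sets nearest to the mean profile and 2 nearest to each member. AUR3, Haspin, WYR, and the root, principal component and array median relations were added after their values were seen. The labels call the arrays biological replicates and say that 3 sets of each genotype grew at the same time. The alternatives were other filters, normalizations, pseudocounts and variance settings, weights per array, each array left out, and a block on the replicate number.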

Additional observations from a re-analysis of the deposited data

How the results depend on the processing

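Limma placed 0 probe sets, 0 of the 4 mitosis genes and 0 of the other listed division genes past the adjusted threshold under all 18 alternatives. The smallest adjusted p of a mitosis gene was 0.999. Leaving out 1 array at a time moved the log2 differences over -0.021 to 0.15 for AUR1, 0.13 to 0.37 for AUR2, -0.039 to 0.19 for 3xHMG-box1 and 0.051 to 0.19 for 3xHMG-box2, and the mean of the 4 from 0.078 to 0.17. AUR1 turned without mutant 2 and 3xHMG-box1 without mutant 1. No direction turned under the other alternatives, with ranges of 0.0081 to 0.073, 0.16 to 0.26, 0.053 to 0.095 and 0.097 to 0.15 in the same order. AUR2 and 3xHMG-box1 gave no value with the lowest 50% left out. The count of probe sets with an unadjusted p under 0.05, 271 in all, was 619 with no filter, 115 with the lowest 50% left out and 136 with the replicate number as a block, and 0 passed in each.

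The replicate block changed no call. It left the log2 differences as they were, since the design is balanced (AUR2 0.22, 3xHMG-box2 0.11, AUR1 0.061, 3xHMG-box1 0.076, mean 0.12). Same-numbered arrays did not deviate together over the tested probe sets (correlations of -0.59, -0.49 and -0.13 for numbers 1, 2 and 3), so the numbers were not treated as pairs.

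With 1 array left out, the correlations ranged from 0.096 to 0.85 (AUR1 with AUR2), -0.76 to 0.11 (AUR1 with 3xHMG-box1), -0.74 to -0.40 (AUR1 with 3xHMG-box2), -0.088 to 0.27 (AUR2 with 3xHMG-box1), -0.092 to 0.68 (AUR2 with 3xHMG-box2) and 0.63 to 0.96 (3xHMG-box1 with 3xHMG-box2). AUR2 with 3xHMG-box1 also turned with arrays centred on the 75th percentile (-0.012) and over deviations from the genotype means (-0.0015). The cause was not tested. None passed the adjusted permutation test under any alternative. The smallest adjusted p was 0.133, over deviations from the genotype means, where the permutation is not exact.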
